A study of Mus musculus with 9 samples.

Results

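Zfp genes encode zinc finger proteins, and 263 of them are described here across 3 stages of mouse sperm formation. The members are the features of the deposited mRNA table that lie on an autosome, have a symbol made of Zfp and a number, and reach 2 FPKM (fragments scaled to transcript length and to library size) in all 3 libraries of at least 1 stage. They were selected on the same FPKM values that are described below. The rule left 263 of 333 autosomal Zfp-numbered features, in a table of 39305 features with a value in every library. The series holds 9 RNA libraries of male germ cells from the testis of adult mice on a normal diet. They fall into 3 groups of 3: spermatogonia (A and B), cells in pachytene, and round spermatids. No strain, genotype or treatment is given, no isolation method is stated, and the labels do not say whether the replicates came from separate animals, so p-values measure the spread between these libraries.

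A C2H2 zinc finger is a short loop held by a zinc ion between cysteines and histidines, and most proteins of the family carry an array of such fingers that reads DNA. Many also carry a KRAB box, which recruits the scaffold TRIM28 (KAP1) and through it the methyltransferase SETDB1 and HP1 proteins, a route known for silencing transposable elements. The mouse genome holds many KRAB zinc finger genes in clusters that grew by gene duplication. Spermatogonia are mitotic, pachytene is the long stage of meiosis in which paired chromosomes recombine, and round spermatids are haploid.

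Entry was not equal between stages. All 3 stages reached the threshold for 138 members, spermatogonia alone for 41, pachytene alone for 11 and round spermatids alone for 13. A further 25 members passed in pachytene and round spermatids, 23 in spermatogonia and pachytene, and 12 in spermatogonia and round spermatids. Just inside the threshold stood Zfp593, whose lowest pachytene library had 2.10 FPKM, Zfp27 with 2.14 FPKM and Zfp870 with 2.15 FPKM in their lowest spermatogonia libraries. Just outside stood Zfp947 with 1.97 FPKM in its lowest pachytene library, and Zfp605 with 1.93 FPKM and Zfp772 with 1.88 FPKM in their lowest spermatogonia libraries. The median of the highest library was 1.22 FPKM among the 70 features left out.

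The summed level of the members was 1808 to 1915 FPKM in the spermatogonia libraries, 3421 to 3513 FPKM in pachytene and 3288 to 3474 FPKM in round spermatids. The sum was thus lowest in all 3 spermatogonia libraries, and the pachytene and spermatid ranges overlapped. The median member lay between 4.81 and 6.15 FPKM in every library. Replicates were close, with a median coefficient of variation over members of 7.57% in spermatogonia, 6.22% in pachytene and 7.85% in round spermatids. The smallest steps between low FPKM values implied about 17 to 53 M fragments (M, mega) per library, an estimate since counts were not among the files used here.

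Marker genes followed the stage labels in most comparisons. All 8 spermatogonia markers fell in pachytene, all 8 pachytene markers rose there, and all 8 spermatid markers rose again in round spermatids. Of the spermatogonia markers 5 rose again in round spermatids, 6 were called lower there than in spermatogonia, and 1 had its highest mean there. Of the pachytene markers 4 were called lower in round spermatids than in pachytene, and 2 had their highest mean in round spermatids. Markers of somatic cells were also present. Most lists were highest in spermatogonia. The summed level of 8 Sertoli markers was 766 to 876 FPKM there and 232 to 241 FPKM in pachytene, and that of 6 fibroblast markers was 150 to 354 FPKM against 8.17 to 9.41 FPKM. Spermatogonia library 3 had the highest fibroblast sum and the highest red blood cell sum, 317 FPKM against 114 and 125 FPKM in the other 2. No somatic marker found in the table was at 0 in all spermatogonia libraries. All 5 Leydig cell markers were highest in pachytene, with a sum of 87.5 to 95.3 FPKM against 13.2 to 14.8 FPKM in spermatogonia and 18.5 to 27.2 FPKM in round spermatids. Of 6 macrophage markers 4 were highest in round spermatids, with a sum of 15.4 to 18.8 FPKM there, 1.07 to 2.22 FPKM in pachytene and 4.94 to 28.7 FPKM in spermatogonia. Without spermatogonia library 1, 2 or 3, the members called lower in pachytene than in spermatogonia numbered 63, 61 and 61 in place of 65, and those highest in spermatogonia 51, 50 and 50 in place of 53. In each case 3 members could not be tested. The part of somatic RNA in the members' differences was not tested. In such bulk samples, fewer cells of a type and less RNA per cell cannot be told apart.

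Between spermatogonia and pachytene, 86 members (32.7%) rose and 65 (24.7%) fell by at least 1 on the log2 scale at an adjusted p under 0.05 (limma on log2(FPKM + 0.1), Benjamini-Hochberg over 17987 features). Of all features tested, 36.6% rose and 31.0% fell. Among 13120 other autosomal features that pass the same FPKM rule, 41.7% rose and 26.8% fell. The shares of the members were below those of all features in both directions, and the median member changed by 0.22 against 0.26 for all features on the log2 scale. These counts are descriptions, because a feature that enters through the stage in which it is high tends to differ between stages.

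Between pachytene and round spermatids the balance turned, with 42 members (16.0%) higher in round spermatids and 71 (27.0%) lower. Of all features tested, 27.3% were higher and 13.4% were lower. Among the other features under the same rule, 23.7% were higher and 14.9% lower. The median member was at -0.37 on the log2 scale, against 0.13 for all features. Among the 138 members at 2 FPKM in all 9 libraries, which the rule could not have admitted through a single stage, 12 were higher and 38 lower, with a median of -0.41. The 7703 other features at that level had 860 higher and 1207 lower, with a median of -0.22. Whether the members differ from other features was not tested.

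Between spermatogonia and round spermatids, 85 members (32.3%) were higher in round spermatids and 84 (31.9%) lower, beside 38.5% and 30.1% of all features. Setting every library to the same median moved the median of all features from 0.26 to 0.36 for pachytene against spermatogonia, from 0.13 to -0.23 for round spermatids against pachytene, and from 0.21 to -0.04 for round spermatids against spermatogonia. Under that scaling the median member went from -0.37 to -0.73 in the second comparison, and from 0.06 to -0.19 for round spermatids against spermatogonia, so no direction is read from that median. No member called in the deposited scaling changed its direction.

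Members were grouped by the stage in which they were called above both other stages. Spermatogonia held 53 such members (20.2%), pachytene 34 (12.9%) and round spermatids 28 (10.6%). Of all features tested, 24.3% were highest in spermatogonia, 7.2% in pachytene and 17.8% in round spermatids. Another 59 members were lowest in spermatogonia, 16 lowest in pachytene and 23 lowest in round spermatids, and these groups overlap with the first. These are 22.4%, 6.08% and 8.75% of members, against 29.8%, 9.51% and 4.19% of all features. No comparison called 43 of the 263 members, beside 2866 of the 17987 features tested.

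**Figure D1:**
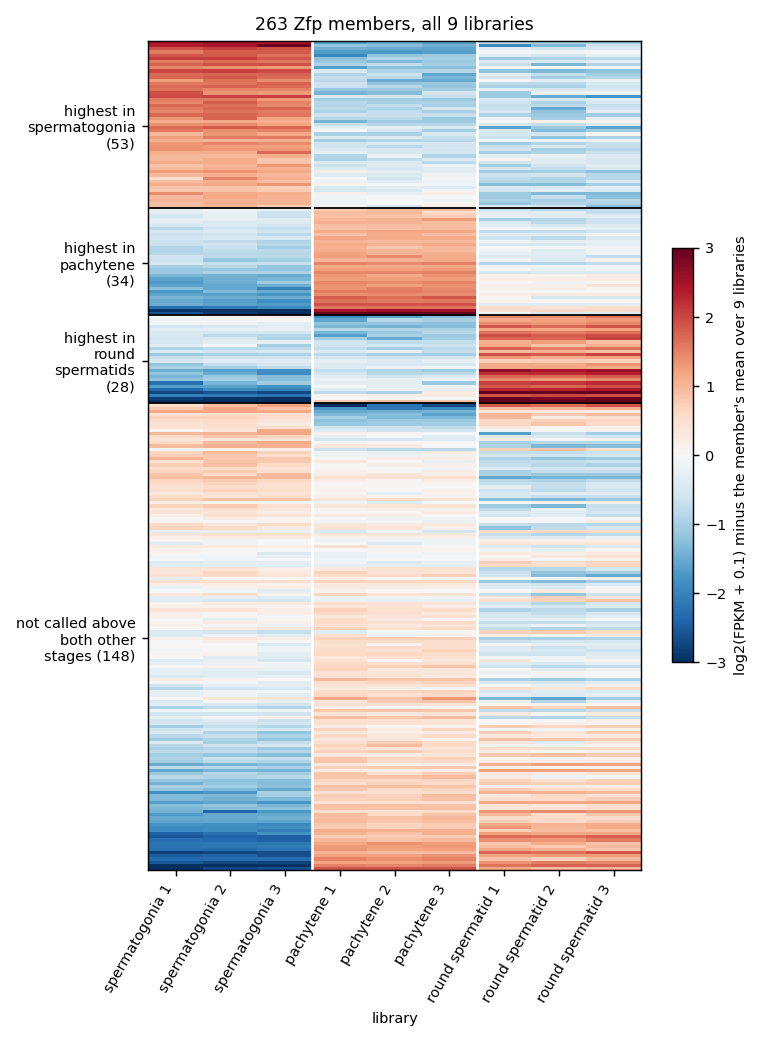
Levels of the 263 members (rows) in the 9 libraries (columns), as log2(FPKM + 0.1) minus each member's mean over the libraries, with red above and blue below that mean. Rows are grouped by the stage in which a member was called above both others (53, 34, 28 and 148 not so called), and the 3 libraries of a stage look alike in each group.

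Among members highest in spermatogonia, Zfp266, a KRAB protein with 9 fingers, fell the most. Its level was 28.3, 30.6 and 28.3 FPKM in the spermatogonia libraries, 1.58, 1.82 and 1.64 FPKM in pachytene, and 2.95, 2.61 and 2.58 FPKM in round spermatids. The groups did not overlap, and the fall into pachytene was -4.03 ± 0.09 (log2 fold change ± SE, n = 3 per stage, limma adjusted p = 1.36e-10). Zfp36 encodes tristetraprolin, which has fingers of another type (CCCH) and binds AU-rich messenger RNAs to speed their decay. Zfp36 had 58.2, 57.9 and 50.2 FPKM in spermatogonia, 5.65, 7.34 and 6.52 FPKM in pachytene and 6.37, 7.06 and 7.71 FPKM in round spermatids. It fell by 3.08 ± 0.11 on the log2 scale into pachytene (limma adjusted p = 4.82e-09), and the pachytene and spermatid values overlapped.

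Zfp292 had 19.0 to 20.9 FPKM in spermatogonia, 1.59 to 1.75 FPKM in pachytene and 3.26 to 3.99 FPKM in round spermatids. Zfp931 fell into pachytene by 3.88 ± 0.31 on the log2 scale, Zfp704 by 3.41 ± 0.11 and Zfp930 by 3.20 ± 0.22. Every pachytene and spermatid library of Zfp931 was under 0.5 FPKM. Zfp704 has no finger of the searched pattern, and 16.6% of its exon bases lie opposite exons of a gene on the other strand. Zfp148, a factor that binds GC-rich DNA, stood at 16.6, 18.3 and 17.7 FPKM in spermatogonia and between 5.12 and 6.62 FPKM in all 6 later libraries. Zfp568, a KRAB protein that represses a placental transcript of Igf2, was at 7.21 to 7.60 FPKM in spermatogonia, 2.65 to 3.17 FPKM in pachytene and 1.96 to 2.44 FPKM in round spermatids. The fall of Zfp568 into pachytene was -1.35 ± 0.11 (limma adjusted p = 1.69e-06).

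Zfp146, a small protein made almost wholly of its 10 fingers, fell at each step. It was at 14.5 to 15.9 FPKM in spermatogonia, 3.33 to 3.69 FPKM in pachytene and 1.41 to 1.99 FPKM in round spermatids, and only 2 other members, Zfp111 and Zfp869, were also called lower at both steps. Those 2 were named after their values were seen, and how many of all features were called lower at both steps was not counted. With a pseudocount of 1 FPKM the second step of Zfp146 was -0.81 and not called. The largest falls from spermatogonia to round spermatids were those of Zfp931, Zfp358, Zfp266, Zfp395, Zfp146, Zfp36, Zfp760 and Zfp808, between -3.88 and -2.72 on the log2 scale. In Zfp931, Zfp358, Zfp395 and Zfp760 every pachytene and spermatid library was under 0.6 FPKM.

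The 8 members with the largest rise into pachytene were Zfp389, Zfp474, Zfp956, Zfp54, Zfp541, Zfp574, Zfp35 and Zfp646. Zfp541 is known in mice for its need in completing meiotic prophase. It had 2.24, 2.2 and 1.75 FPKM in spermatogonia, 56.9, 54.7 and 58.2 FPKM in pachytene and 61.5, 67.6 and 66.4 FPKM in round spermatids. All later libraries were above all spermatogonia libraries, with a rise of 4.72 ± 0.09 (limma adjusted p = 6.93e-11), and the step to round spermatids was not called (0.20 ± 0.09, limma adjusted p = 0.0712).

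Partners of ZFP541 in a histone deacetylase complex were set beside it. Kctd19, which binds ZFP541, had 0.286 to 0.399 FPKM in spermatogonia, 345 to 363 FPKM in pachytene and 265 to 279 FPKM in round spermatids. Dnttip1 rose from 12.3 to 14.9 FPKM in spermatogonia to 31.5 to 33.8 FPKM in pachytene, and Hdac1 rose from 24.3 to 29.1 FPKM to 59.5 to 60.6 FPKM. Hdac2 went from 49.7 to 56.7 FPKM to 26.0 to 29.4 FPKM, a difference of -0.93 ± 0.06 that stayed under the fold threshold. Elmsan1 fell from 4.56 to 4.98 FPKM to 0.284 to 0.35 FPKM. So 3 of the 5 listed genes rose into pachytene and 1 fell, beside 36.6% and 31.0% of all features. Whether these 5 genes differ from other features was not tested. Over the 9 libraries, the features with the most similar profile to Zfp541 were Tut1 and Trim69 (Pearson r = 0.9998 each) and Lig3, Tprn and Lrrc46 (r = 0.9997 each), given as a description since all share the libraries and the stage contrast.

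Zfp646 reached 129, 132 and 139 FPKM in pachytene and 127, 135 and 134 FPKM in round spermatids, from 9.97, 10.5 and 8.87 FPKM in spermatogonia. The later groups overlapped and both stood above spermatogonia. Zfp574 went from 4.71 to 5.46 FPKM to 73.5 to 78.8 FPKM in pachytene, and Zfp35, a gene known for its expression in pachytene cells, from 3.93 to 4.10 FPKM to 53.7 to 57.4 FPKM. Zfp54 rose from 0.37 to 0.716 FPKM to 18.8 to 18.9 FPKM.

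Other members shared this lasting rise. Zfp110, a KRAB protein that binds the neurotrophin receptor p75, rose from 8.71 to 9.29 FPKM to 97.8 to 100.0 FPKM in pachytene and was at 70.7 to 80.6 FPKM in round spermatids. Zfp91, a ubiquitin ligase of the non-canonical NF-kB route, rose by 2.16 ± 0.05 into pachytene, to 104 to 108 FPKM. Zfp654 rose by 3.73 ± 0.07 into pachytene and reached 118 to 138 FPKM in round spermatids. Zfp438 reached its place among the 8 largest rises from spermatogonia to round spermatids with 4.16 ± 0.06, from 2.39 to 2.7 FPKM to 44.9 to 50.3 FPKM. Zfp105 rose into pachytene by 2.59 ± 0.06, Zfp39 by 3.29 ± 0.08 and Zfp217, whose human counterpart is an oncogene, by 1.48 ± 0.07 on the log2 scale. Zfp423, a factor of fat cell and cerebellum development, was lower in level, at 0.459 to 0.973 FPKM in spermatogonia, 3.87 to 4.18 FPKM in pachytene and 6.99 to 7.58 FPKM in round spermatids.

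Among the members highest in pachytene, Zfp956 was the most abundant of those named by size of peak. Zfp956 had 3.56, 3.31 and 2.82 FPKM in spermatogonia, 159, 165 and 163 FPKM in pachytene and 38.7, 42.8 and 41.3 FPKM in round spermatids. The 3 stages were fully apart, with a rise of 5.62 ± 0.08 (limma adjusted p = 1.10e-11) and a fall of 1.99 ± 0.08 (limma adjusted p = 4.24e-08). Zfp389, annotated as a pseudogene, had 0.57, 0.454 and 0.168 FPKM in spermatogonia, 43.3, 39.5 and 47.8 FPKM in pachytene and 3.73, 3.01 and 3.01 FPKM in round spermatids. It rose by 6.55 ± 0.29 into pachytene, ahead of Zfp474 (5.99 ± 0.10), but with a pseudocount of 0.01 FPKM the order turned (6.90 and 7.20). No 100-base word of its transcript occurs in another gene.

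Zfp346, a protein that binds double-stranded RNA, was at 14.0, 12.1 and 12.5 FPKM in spermatogonia, 56.4, 53.9 and 57.7 FPKM in pachytene and 11, 11 and 11.9 FPKM in round spermatids. The pachytene libraries stood far above both other groups, which did not overlap but whose difference was not called (-0.18 ± 0.07). Zfp661, Zfp382 and Zfp784 rose and fell in the same way, with pachytene levels of 16.6 to 17.0, 23.2 to 26.3 and 6.25 to 6.43 FPKM. Exons on the other strand cover 94.8% of the exon bases of Zfp784, and whether the counting used the strand is not given in the sources used here. Zfp397 and Zfp771 completed the 8 largest peaks, with 25.1 to 26.5 and 32.2 to 39.2 FPKM in pachytene. Zfp612 and Zfp952 were also among the 8 largest falls into round spermatids, with -1.93 ± 0.12 and -2.43 ± 0.19.

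Other members with a pachytene peak have known roles. Zfp42 encodes REX1, a marker of pluripotent stem cells, and had 2.18, 2.02 and 1.72 FPKM in spermatogonia, 20.2, 19.3 and 19.6 FPKM in pachytene and 6.99, 6.64 and 6.63 FPKM in round spermatids. Zfp318, needed in B cells to make IgD messenger RNA, had 94.8 to 107 FPKM in pachytene against 14.9 to 16.5 FPKM in spermatogonia and 45.5 to 48.7 FPKM in round spermatids. Zfp473, whose human counterpart takes part in histone messenger RNA processing, had 5.36 to 5.84 FPKM in pachytene against 1.09 to 1.63 FPKM and 1.92 to 2.82 FPKM. With a pseudocount of 1 FPKM the fall of Zfp473 was -0.97 and not called. Zfp523 was at 36.5 to 38.4 FPKM in pachytene, while Zfp143, its close relative and an activator bound at many promoters, stayed between 5.27 and 6.66 FPKM in all 9 libraries. Zfp41 had 42.6 to 43.4 FPKM and Zfp59 12.9 to 13.7 FPKM in pachytene, but 28.5% of the 100-base words of Zfp59 occur in another gene.

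**Figure D2:**
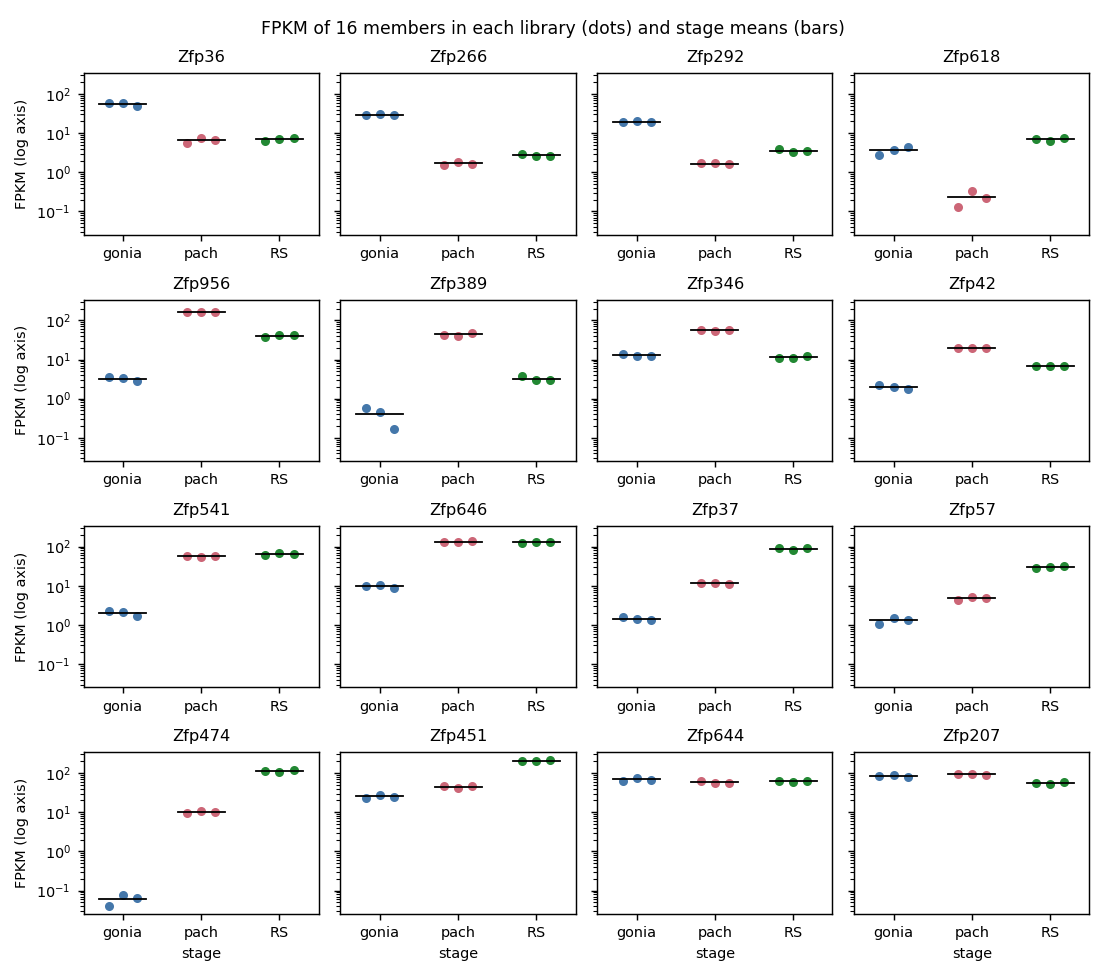
FPKM on a log axis of 16 members in each library (dots, 3 per stage) with the stage mean as a bar, for spermatogonia (gonia), pachytene (pach) and round spermatids (RS). Zfp36, Zfp266 and Zfp292 are high in spermatogonia, Zfp956, Zfp389, Zfp346 and Zfp42 peak in pachytene, Zfp541 and Zfp646 stay high from pachytene on, Zfp37, Zfp57, Zfp474 and Zfp451 are highest in round spermatids, and Zfp618 is lowest in pachytene.

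Round spermatids were the peak of 28 members. Zfp474 had 0.0397, 0.0754 and 0.0652 FPKM in spermatogonia, 9.56, 10.6 and 9.94 FPKM in pachytene and 111, 109 and 118 FPKM in round spermatids. It rose at both steps, by 3.48 ± 0.10 at the second, and the first fold is understated because the spermatogonia values lie below the pseudocount. Zfp37, a KRAB gene long known for its expression in testis, had 1.59, 1.44 and 1.37 FPKM in spermatogonia, 11.7, 12 and 11.4 FPKM in pachytene and 94.6, 83.1 and 91.7 FPKM in round spermatids. It rose by 2.92 ± 0.07 and then by 2.93 ± 0.07 (limma adjusted p = 3.94e-10 and 3.07e-09).

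Zfp57, a KRAB protein that keeps DNA methylation at imprinted genes, had 1.05, 1.53 and 1.38 FPKM in spermatogonia, 4.45, 5.06 and 4.75 FPKM in pachytene and 28.4, 29.8 and 32.3 FPKM in round spermatids. Zfp13, Zfp558 and Zfp735 were the other members called higher at both steps, 6 in all, of which Zfp13 and Zfp558 were named after their values were seen. How many of all features were called higher at both steps was not counted. Zfp735 was listed at 0 in 2 spermatogonia libraries and at 0.0108 FPKM in library 2, and reached 5.17 to 6.64 FPKM in round spermatids. It entered the members through round spermatids alone. With a pseudocount of 1 FPKM its first step was 0.48 and not called. Zfp451, whose human counterpart is a SUMO ligase, was the most abundant member over all libraries. It had 23.6 to 28.2 FPKM in spermatogonia, 41.4 to 47.3 FPKM in pachytene and 197 to 220.4 FPKM in round spermatids, a second step of 2.21 ± 0.08. Zfp72 rose by 3.47 ± 0.14 and Zfp239 by 3.02 ± 0.17 from pachytene to round spermatids.

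In pachytene 16 members (6.08%, against 9.51% of all features) were called lower than in both other stages. Zfp618, which binds the DNA-reading protein UHRF2, had 2.79, 3.71 and 4.51 FPKM in spermatogonia, 0.134, 0.343 and 0.218 FPKM in pachytene and 7.19, 6.45 and 7.39 FPKM in round spermatids. It fell by 3.53 ± 0.24 and rose by 4.47 ± 0.24 (limma adjusted p = 5.44e-07 and 2.54e-07). Zfp462 had 33 matches to the searched finger pattern, the most among the members, and has a human counterpart altered in a developmental disorder. Zfp462 went from 7.84, 10.1 and 8.20 FPKM to 1.27, 0.90 and 1.14 FPKM and back to 8.67, 9.23 and 9.47 FPKM. Its spermatogonia and spermatid libraries overlapped. Zfp442 dipped to 0.413 to 0.659 FPKM in pachytene between 1.80 to 2.07 FPKM and 4.77 to 5.60 FPKM, and 12.9% of its 100-base words occur in another gene. With a pseudocount of 1 FPKM its first step was -0.95 and not called.

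Some members of known role were called in few comparisons or none. Zfp644, a partner of the G9a and GLP histone methyltransferases, was at 63.3 to 74.6 FPKM in spermatogonia, 56.3 to 63.3 FPKM in pachytene and 60.8 to 63.7 FPKM in round spermatids, and all 3 stages overlapped. Zfp207 (BuGZ), which helps spindle assembly, was at 80.9 to 88.7, 90.9 to 95.9 and 51.6 to 57.7 FPKM, a step of -0.77 ± 0.06 into round spermatids that stayed under the fold threshold. Zfp687, Zfp131, Zfp335 and Zfp326 were also called in none of the 3 comparisons. Zfp281, a regulator of pluripotency, fell from 20.4 to 22.8 FPKM in spermatogonia to 6.93 to 7.84 FPKM in round spermatids (-1.51 ± 0.07, limma adjusted p = 4.35e-08). It was also called lower in round spermatids than in pachytene (-1.01 ± 0.07), a call that pseudocount 1 and leaving out pachytene library 1 or 3 or round spermatid library 2 ended (-0.93, -0.98, -0.97 and -0.96). Zfp106, an RNA-binding protein of motor neurons, was called lower in pachytene than in spermatogonia (-1.04 ± 0.23), but spermatogonia library 3 had 31.5 FPKM against 15.0 and 17.9 FPKM, and without that library the difference was -0.73 and not called. The call also ended without pachytene library 2 (-0.99), with a pseudocount of 1 FPKM (-0.98) and with equal library medians (-0.94). Exons on the other strand cover 26.1% of the exon bases of Zfp106.

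Of KRAB proteins with known transposon targets, 3 that are members are given. Zfp809, which silences murine leukaemia virus in embryonic cells, was at 4.87 to 6.06 FPKM in spermatogonia, 9.62 to 10.2 FPKM in pachytene and 6.26 to 8.13 FPKM in round spermatids, and no comparison called it. Zfp932, linked to repression of endogenous retroviruses, was at 7.12 to 8.92, 7.71 to 9.37 and 2.52 to 3.65 FPKM, with 18.5% of its 100-base words in another gene. It fell by 1.45 ± 0.15 into round spermatids. Zfp819, also linked to retroelement repression, rose from 2.01 to 2.48 FPKM in pachytene to 17.5 to 19.2 FPKM in round spermatids.

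The translated proteins (GENCODE M21) let the members be sorted by structure. Fingers were counted on the longest coding sequence of a gene, while a KRAB match in any of its translated transcripts was accepted. A protein was translated for 256 members, 6 are pseudogenes and 1, a second Zfp319 feature, is not in that release. The median was 10 fingers per protein, counted as C, 2 residues, C, 12 residues, H, 3 to 5 residues and H, and 10 members had none. Fingers of other spacing are not counted, and the counted ones need not lie next to each other. A KRAB match was found in 130 members, with a median of 12 fingers, and the 126 without one had a median of 7 fingers. A member without a match lacks the searched pattern, which does not show that it lacks a KRAB box. By comparison, the KRAB pattern was found in 1.54% of 21838 translated genes, 299 of 336 of which had at least 3 fingers.

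Between spermatogonia and pachytene, 32 members with a KRAB match rose and 38 fell, while 51 without a match rose and 27 fell. The median log2 change was 0.06 with a match and 0.66 without, beside 36.6% of all features higher and 31.0% lower. Between pachytene and round spermatids the medians were -0.35 and -0.38, with 24 higher and 36 lower among KRAB members and 17 higher and 32 lower among the others. These are 18.5% and 27.7% with a match and 13.5% and 25.4% without, beside 27.3% and 13.4% of all features. Under equal library medians the last split went from 34.7% to 24.6% higher calls among members without a match. Of members highest in spermatogonia, 34 had a match and 19 did not. Of those highest in pachytene, 13 had a match and 19 did not, and of those highest in round spermatids 19 had one and 8 did not. Highest in spermatogonia were 26.2% of members with a match and 15.1% of those without, beside 24.3% of all features. Highest in round spermatids were 14.6% with a match and 6.35% without, both below the 17.8% of all features. The share highest in pachytene was above the 7.2% of all features in both classes. Whether the 2 classes differ was not tested. They also differ in finger number and position, since 102 of the 130 members with a match lie in clusters.

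**Figure D3:**
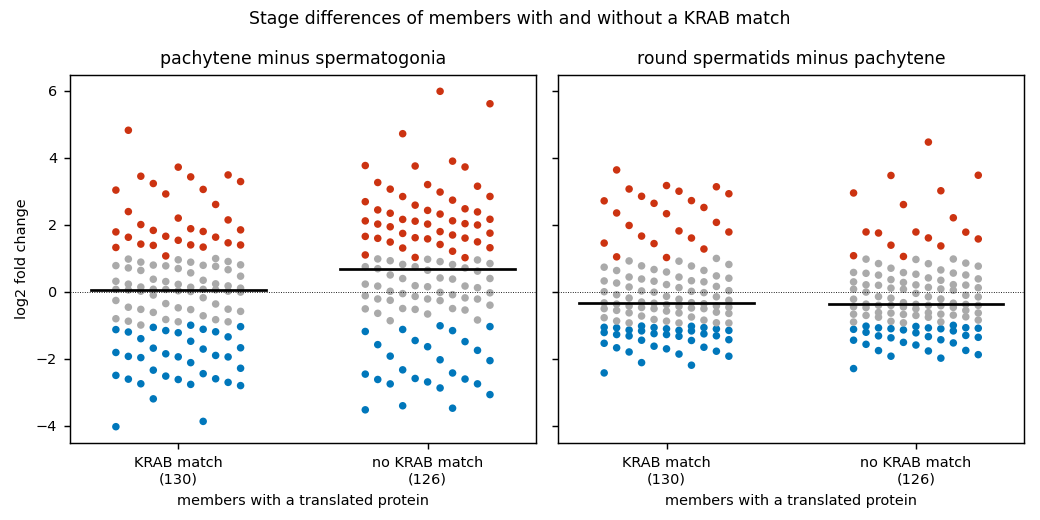
Log2 fold changes of members with a KRAB match (130 dots) and without one (126 dots), for pachytene minus spermatogonia and round spermatids minus pachytene, with the median as a bar. Red dots were called higher, blue dots lower and grey dots neither. The medians of the first comparison are 0.06 and 0.66, and those of the second are -0.35 and -0.38.

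Genes that carry out KRAB silencing were set beside the members. Of 34 such genes, 11 rose and 5 fell into pachytene, and 6 rose and 6 fell into round spermatids. These are 32.4% and 14.7%, beside 36.6% and 31.0% of all features, and 17.6% each way, beside 27.3% and 13.4%. Trim28, the scaffold that KRAB boxes bind, rose from 88.3, 95.2 and 78.6 FPKM in spermatogonia to 316, 319 and 311 FPKM in pachytene and stood at 204, 220.2 and 214 FPKM in round spermatids. Its rise was 1.86 ± 0.07 (limma adjusted p = 6.94e-09). Setdb1, the methyltransferase of the route, was at 25.0 to 29.4, 35.6 to 36.1 and 19.1 to 19.8 FPKM and was called in no comparison. Both were named for their place at the core of the route, not by size of change.

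Apart from Chd4, the other partner genes given here changed by at least 2 on the log2 scale in a called comparison. Of the TRIM28 relatives, Trim24 rose by 2.44 ± 0.05 to 122 to 128 FPKM in pachytene, and Trim66 rose at both steps, from 0.206 to 0.301 FPKM through 1.11 to 1.29 FPKM to 10.5 to 12.2 FPKM. Atf7ip2, a relative of the SETDB1 cofactor Atf7ip, rose by 2.08 ± 0.08 to 59.2 to 65.2 FPKM in pachytene. Pphln1, a subunit of the HUSH silencing complex, rose by 2.50 ± 0.05 from pachytene to round spermatids. Dnmt3a, a DNA methyltransferase, fell from 18.5 to 19.7 FPKM in spermatogonia to 1.75 to 1.99 FPKM in pachytene. Of the NuRD remodelling complex, the X-linked Rbbp7 fell by 3.22 ± 0.05 into pachytene, Mbd3 rose by 2.02 ± 0.06, and Gatad2b fell by 1.95 ± 0.13 and rose again by 2.21 ± 0.13. Zfp410 is a member known to drive transcription of Chd4, a NuRD subunit. Zfp410 fell from 14.0 to 15.8 FPKM in spermatogonia to 6.01 to 7.10 FPKM in round spermatids (-1.21 ± 0.08), while Chd4 stood at 61.4 to 68.4 and 53.4 to 59.0 FPKM (-0.22 ± 0.07, not called).

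**Figure D4:**
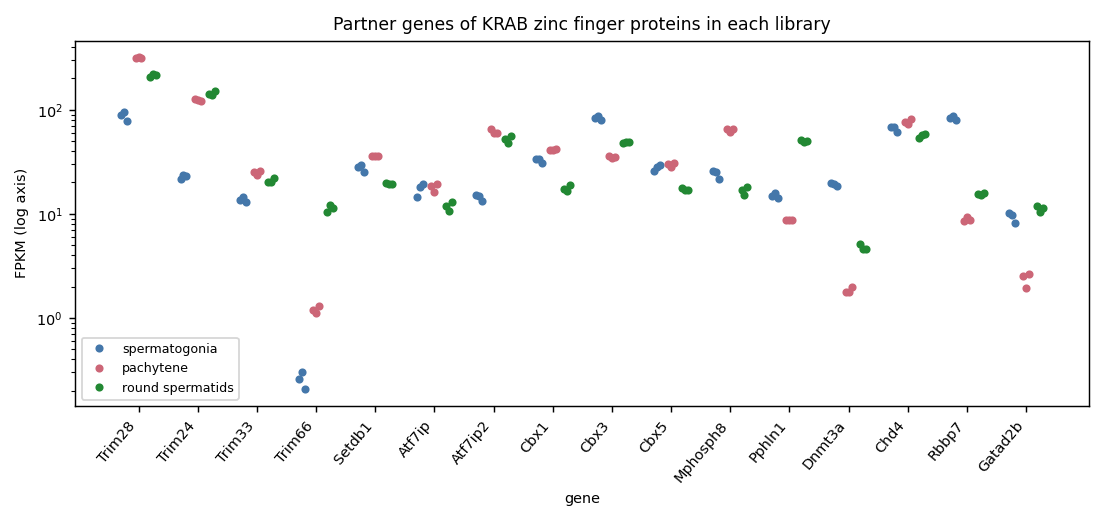
FPKM on a log axis of 16 partner genes of KRAB zinc finger proteins, with a dot for each of the 3 libraries of spermatogonia, pachytene and round spermatids. Trim28 and Trim24 are lowest in spermatogonia, Dnmt3a and Rbbp7 are highest there, and Trim66 is highest in round spermatids.

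Most members lie in groups along the genome. Chromosome 7 holds 67 members, chromosome 17 holds 31 and chromosome 13 holds 25, and 147 members fall into 24 clusters of at least 3 members with gaps of at most 1 Mb (GENCODE M21, GRCm38). The cluster at chr13:66669928-67827002 has 13 members, 11 of them with a KRAB match. From pachytene to round spermatids 7 of the 13 rose and 2 fell, with a median of 1.44 on the log2 scale, against 27.3% and 13.4% of all features. The same 7 were the ones highest in round spermatids (53.8%, beside 17.8% of all features), and under equal library medians 7 rose and 3 fell. Members such as Zfp273 and Zfp458 entered through round spermatids alone. Zfp273 had 2.56 to 2.82 FPKM there and 0.778 to 1.08 FPKM in pachytene. A rise in such a member follows from the rule, so these counts are descriptions.

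Zfp87 rose the furthest in level within this cluster, from 2.69, 4.49 and 4.15 FPKM in pachytene to 34.2, 31.0 and 34.3 FPKM in round spermatids (3.13 ± 0.18, limma adjusted p = 3.61e-07). Its neighbour Zfp58 went from 2.74, 2.41 and 2.30 FPKM to 18.7, 17.0 and 19.8 FPKM, but 43.8% of the 100-base words of Zfp58 occur in another gene. Zfp759 went from 1.72 to 2.10 FPKM to 10.5 to 12.5 FPKM, Zfp458 from 0.547 to 0.602 FPKM to 5.46 to 6.32 FPKM, Zfp457 from 0.281 to 0.567 FPKM to 3.33 to 3.78 FPKM, and Zfp712 and Zfp273 rose by 1.78 ± 0.09 and 1.44 ± 0.14.

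Genes lying between them did not follow. Zfp748, next to Zfp87, had 6.18 to 6.91 FPKM in spermatogonia, 23.1 to 24.8 FPKM in pachytene and 8.77 to 10.8 FPKM in round spermatids, and 10.2% of its exon bases lie opposite exons of the other strand. Zfp595 had 4.98 to 5.34 FPKM in pachytene and 2.47 to 3.30 FPKM in round spermatids, and Zfp953 had 2.17 to 2.89 and 1.65 to 1.87 FPKM. Except for Zfp458 and Zfp87, the genes of this cluster were named for their place in it and after their values were seen.

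**Figure D5:**
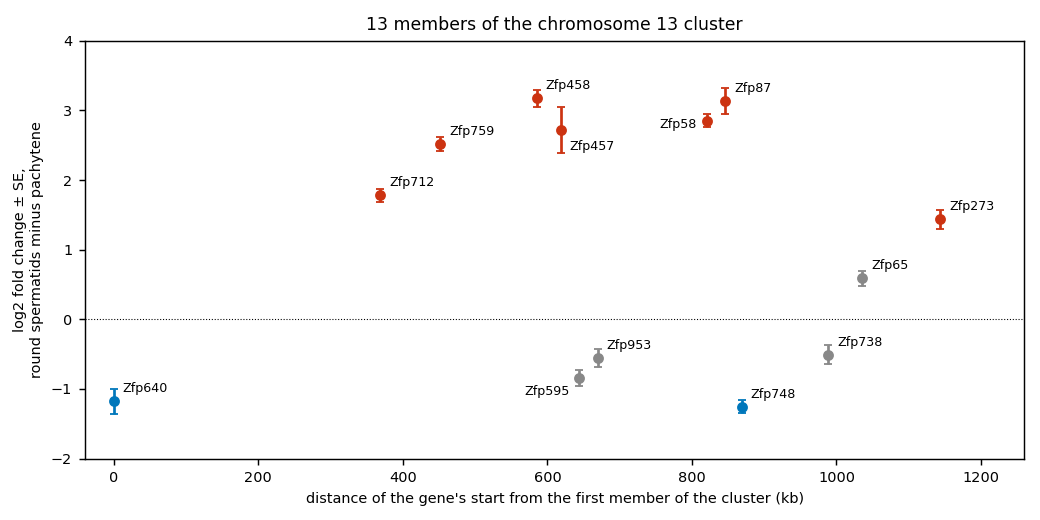
Log2 fold change ± SE (round spermatids minus pachytene, 3 libraries each) of the 13 members of the chromosome 13 cluster, by distance of the gene's start from that of the first member in kb. The 7 members called higher (red) lie between 1.44 and 3.17, and members called lower (blue) or neither (grey) lie among them.

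The promoters of 4 neighbours in this cluster are shown because 2 of them, Zfp759 and Zfp457, belong to genes highest in round spermatids while Zfp595 and Zfp953 do not. Each runs from 250 bases before to 50 bases after the RefSeq start, 5′ to 3′ on the gene's strand (GRCm38.p6). The places are chr13:67127978-67128277 (+), chr13:67306363-67306662 (-), chr13:67332511-67332810 (-) and chr13:67360523-67360822 (-). For Zfp759 this start lies inside the GENCODE span of the gene. Capitals mark a run of 18 bases common to all 4, TTGTGGGAAATGTAGTCC, and, in all but Zfp759, a cyclic AMP response element, TGACGTCA.
Zfp759: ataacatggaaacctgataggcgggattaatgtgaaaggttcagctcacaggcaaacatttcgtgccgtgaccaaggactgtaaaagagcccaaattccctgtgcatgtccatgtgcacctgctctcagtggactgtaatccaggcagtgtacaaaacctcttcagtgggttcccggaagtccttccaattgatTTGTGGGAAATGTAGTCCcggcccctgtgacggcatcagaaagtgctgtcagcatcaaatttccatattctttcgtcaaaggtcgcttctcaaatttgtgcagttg
Zfp457: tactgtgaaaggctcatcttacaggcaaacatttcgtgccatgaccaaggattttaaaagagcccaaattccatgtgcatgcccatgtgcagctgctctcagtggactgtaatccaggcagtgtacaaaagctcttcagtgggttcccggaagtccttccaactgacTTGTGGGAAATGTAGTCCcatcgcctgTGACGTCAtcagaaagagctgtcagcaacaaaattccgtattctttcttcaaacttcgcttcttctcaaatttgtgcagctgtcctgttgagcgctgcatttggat
Zfp595: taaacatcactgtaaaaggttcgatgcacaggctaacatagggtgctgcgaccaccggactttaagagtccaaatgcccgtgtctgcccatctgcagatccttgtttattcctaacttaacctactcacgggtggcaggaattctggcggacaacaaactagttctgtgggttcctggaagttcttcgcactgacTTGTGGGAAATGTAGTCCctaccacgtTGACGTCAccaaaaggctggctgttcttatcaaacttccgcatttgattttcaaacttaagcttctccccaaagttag
Zfp953: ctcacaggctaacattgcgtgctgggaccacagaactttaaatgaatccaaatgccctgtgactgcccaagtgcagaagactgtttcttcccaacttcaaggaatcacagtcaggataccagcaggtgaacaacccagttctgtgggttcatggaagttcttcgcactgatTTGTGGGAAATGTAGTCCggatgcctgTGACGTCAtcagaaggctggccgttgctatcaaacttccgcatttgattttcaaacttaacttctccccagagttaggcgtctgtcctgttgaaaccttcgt
The pair Zfp759 and Zfp457 shared 83.0% of 300 bases in a global alignment, and Zfp595 and Zfp953 shared 76.0%, against a median of 62.9% over the 66 pairs among 12 promoters of the cluster. The 4 pairs across, Zfp759 or Zfp457 with Zfp595 or Zfp953, shared 67.3% to 72.0%. The 18-base run was found on either strand in 5 of these 12 promoters, the fifth being that of Zfp458, and in 8 of 31396 autosomal promoters (0.0255%). Of the 5 genes with the run, 3 were highest in round spermatids and 2 were not. The run was defined on 4 promoters chosen to include both kinds of gene. The split therefore cannot show whether the run goes with stage.

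Promoters were matched by symbol for 217 of 263 members, which gave 272 promoters. The median member promoter held 16 CpG sites, against 7 over all autosomal promoters. That set of all promoters, used here and for the motifs below, was not limited to features that pass the FPKM rule. Whether the differences from it are particular to Zfp genes was not tested. The median was 12.5 CpG sites for members highest in spermatogonia, 19 for those highest in pachytene and 15 for those highest in round spermatids. It was 12 with a KRAB match and 20 without. The cyclic AMP response element TGACGTCA, which reads the same on both strands, was in 4.78% of member promoters and 1.83% of all promoters. It was in 5 of 34 promoters of members highest in pachytene, but 3 of these 5 are overlapping promoters of Zfp473. A MYB motif, AACNGTT, also the same on both strands, was in 4.78% of member promoters and 4.32% of all. It was in 3 of the 34 promoters of members highest in pachytene, of which 2 are overlapping promoters of Zfp346. These matches are descriptions of the letters in each window, and the motifs, the run and the promoters shown were chosen after the members' values were seen.

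A further 3 promoters are shown as examples of such matches in genes with different profiles, with the motif in capitals. Zfp346 (chr13:55105059-55105358, +), highest in pachytene, has a MYB motif that begins 196 bases before the start. Zfp367 (chr13:64152324-64152623, -), also highest in pachytene with 74.8, 75.7 and 75.9 FPKM there and named here for its motif, has a cyclic AMP response element 105 bases before the start, and 10.9% of its exon bases lie opposite exons of the other strand. Zfp266 (chr9:20521370-20521669, -), highest in spermatogonia, has the same element 17 bases before the start. For Zfp367 the start used lies inside the GENCODE span of the gene, and the element is in 1 of its 2 promoters.
Zfp346: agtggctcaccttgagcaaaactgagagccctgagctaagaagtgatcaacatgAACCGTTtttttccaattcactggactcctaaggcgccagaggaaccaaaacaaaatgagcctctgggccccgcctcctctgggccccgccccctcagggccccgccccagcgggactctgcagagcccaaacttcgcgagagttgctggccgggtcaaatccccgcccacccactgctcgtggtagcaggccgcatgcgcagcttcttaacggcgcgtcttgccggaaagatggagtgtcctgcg
Zfp367: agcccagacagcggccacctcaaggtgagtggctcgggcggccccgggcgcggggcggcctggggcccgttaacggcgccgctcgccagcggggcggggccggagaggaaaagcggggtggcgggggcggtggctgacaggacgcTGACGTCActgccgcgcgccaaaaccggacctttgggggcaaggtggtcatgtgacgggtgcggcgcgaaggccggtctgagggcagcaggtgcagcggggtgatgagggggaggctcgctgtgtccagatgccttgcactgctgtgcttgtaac
Zfp266: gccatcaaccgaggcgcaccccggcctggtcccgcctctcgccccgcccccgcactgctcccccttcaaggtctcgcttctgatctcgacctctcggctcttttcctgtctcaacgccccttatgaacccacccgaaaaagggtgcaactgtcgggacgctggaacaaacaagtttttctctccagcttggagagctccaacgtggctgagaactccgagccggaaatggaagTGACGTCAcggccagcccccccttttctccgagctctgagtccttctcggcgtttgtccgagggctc
Into pachytene, Zfp367 rose by 2.73 ± 0.06 and Zfp266 fell by 4.03 ± 0.09. Both were picked for their different profiles, so nothing about the element and stage is read from this pair. The element was in 1 of 46 promoters (2.17%) of members highest in spermatogonia, that of Zfp266. It was in 5 of 34 (14.7%) of those highest in pachytene, with 3 of these 5 from Zfp473, and in 2 of 35 (5.71%) of those highest in round spermatids. Whether these shares differ was not tested.

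Other clusters held mixed profiles. At chr17:21008903-23599487, 4 of 17 members (23.5%) rose and 7 (41.2%) fell into pachytene, beside 36.6% and 31.0% of all features, and 7 (41.2%) were highest in spermatogonia, beside 24.3%. At chr7:29768552-30169750, 5 of 12 members (41.7%) fell and none rose from pachytene to round spermatids, beside 13.4% and 27.3% of all features, and under equal library medians 8 fell. In this cluster 5 were highest in spermatogonia, among them Zfp146 and Zfp568. Zfp382 of the same cluster peaked in pachytene. At chr7:24081924-25227507, 5 of 8 (62.5%) rose and 1 (12.5%) fell into pachytene, and at chr7:127233061-127885996, which holds Zfp646 and Zfp771, the same counts were found. Neighbours in a cluster can share reads where their sequences are alike. Across members, 17 share at least 10% of their 100-base words with another gene, and 22 have at least 10% of exon bases opposite other exons. Without both sets and the unmatched Zfp319 feature, 225 members remained, of which 75 rose and 54 fell into pachytene and 35 rose and 63 fell into round spermatids.

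Zfp genes on the X chromosome, were left out of the members. All 6 that were tested were called lower in pachytene than in spermatogonia, for example Zfp711 from 14.5 to 17.3 FPKM to 3.17 to 4.40 FPKM, and 2 of them, Zfp185 and Zfp711, rose again in round spermatids. Other zinc finger families under the same rule are given for comparison. Of 13 Klf genes 2 rose and 9 fell into pachytene, of 37 Zbtb genes 14 (37.8%) rose and 11 (29.7%) fell, and of 11 Zscan genes 5 rose and 1 fell, beside 36.6% and 31.0% of all features. No difference between families was tested.

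In the authors' deposited table for spermatogonia and pachytene, 205 members are listed as differing, 120 higher and 85 lower in pachytene. Of the 151 members called in that comparison, the authors' deposited table lists 148 in the same direction. In the authors' deposited table for pachytene and round spermatids, 190 members are listed, 69 higher and 121 lower in round spermatids, and these include all 113 called members in the same direction.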

How the data were processed

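The authors deposited FPKM values per gene and library. Per the submitters' processing notes, FastQC, Trim Galore, TopHat2 2.0.12 and Cuffdiff 2.2.1 were used with the mm10 build. Step order, options, gene annotation and strand setting: not given in the sources used here. Per the labels, libraries were stranded, paired and made from total RNA. The authors' deposited lists of differing genes, with p-values and q-values and a log2 fold change, were used only for direction and membership.

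Features with at least 0.5 FPKM in 3 libraries (17987) were fitted with limma 3.58.1 (R 4.3.3) with a variance trend on log2(FPKM + 0.1), over all 9 libraries. Calls needed a Benjamini-Hochberg adjusted p below 0.05 together with a log2 difference of 1 or more in either direction. Folds are on that scale and understate the change of low genes. The fit was tested on simulated data. Depth was estimated from the smallest FPKM steps with an estimator replaced once, after the first gave implausible values, so no counting intervals are given.

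The members and lists were chosen with earlier results of these data known. Genes were named as the 8 largest rises and falls per comparison, the 10 highest means, the 8 largest pachytene peaks and a list of known roles. The KRAB pattern was loosened after the first one (97 members) missed known KRAB genes, and the loosened pattern can still miss some. Proteins were translated from GENCODE M21, promoters come from RefSeq (GRCm38.p6), and alignments used Biopython 1.88. Zfp319 occurs under 2 gene IDs, and 31 features lacking a value in some library were dropped.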

Additional observations from a re-analysis of the deposited data

How the results depend on the processing

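Over all 263 members, counts of calls and of members highest in each stage stayed within 1.5 times the reported ones under every alternative run but 1. With a pseudocount of 1 FPKM, 47 members were lower in round spermatids than in pachytene, in place of 71. In the cluster at chr7:29768552-30169750, 8 members in place of 5 were lower in that comparison with equal library medians. Leaving out each library in turn gave 84 to 89 higher and 61 to 65 lower for pachytene against spermatogonia, 41 to 43 and 67 to 71 for round spermatids against pachytene, and 83 to 87 and 80 to 86 for round spermatids against spermatogonia. Zfp358, Zfp760 and Zfp931 were not tested without a spermatogonia library, because too few libraries then passed the filter. With the replicate block the counts were 86, 65, 42, 71, 85 and 84. Same-numbered libraries did not deviate together (correlations of -0.106 to 0.0388), so the numbers were not taken as pairs. Of 133 called differences of named members, 12 missed the fold threshold with a pseudocount of 1 FPKM and 4 with equal library medians, none reversed, and the cause was not tested. A threshold of 1 or 5 FPKM in place of 2 gave 294 or 190 members. The limit that depth sets on low members was not measured.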
